A study of Homo sapiens with 4 samples.

Results

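The core genes of Notch signalling were examined in derivatives of SW480, a human colorectal adenocarcinoma line in long-standing laboratory use. The 10 genes, chosen by name from 19192 genes counted, were the receptors NOTCH1, NOTCH2 and NOTCH3, the ligands JAG1 and JAG2, the receptor protease ADAM10, the DNA-binding factor RBPJ, and the target genes HES1, HES4 and NRARP. All 10 were listed in each of the 4 count files. Libraries of the first line were labelled as overexpressing LIN28B, an RNA-binding protein that blocks let-7 microRNA maturation, and as carrying a knockout of both copies of IMP1, an mRNA-binding protein whose gene symbol is IGF2BP1 (knockout-labelled). Libraries of the second line were labelled as overexpressing LIN28B with no IMP1 change (OE-labelled). LIN28B overexpression is thus labelled in both lines, and the promoter that drives it, and whether either line is a clone, are not stated in the labels used here. Each line gave 1 library of ribosome footprints, the mRNA stretches covered by ribosomes, and 1 library of fragmented RNA, each from 3 pooled culture plates. The comparison asks which mRNAs differ between the lines in abundance and in ribosome occupancy.

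Notch receptors are transmembrane proteins that are activated by Jagged or Delta-like ligands on a neighbouring cell. ADAM10 then cuts the receptor outside the membrane, gamma-secretase releases its intracellular domain, and that domain joins RBPJ and a Mastermind protein on DNA to switch on HES, HEY and NRARP genes. In the intestine the pathway keeps progenitors dividing and favours absorptive over secretory cells, in part because HES1 represses ATOH1, the factor that starts the secretory lineage.

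Total counts were 6813372 in the knockout-labelled and 5429224 in the OE-labelled RNA library, and 3260262 in the knockout-labelled and 2732760 in the OE-labelled footprint library. Since each line and assay has 1 library, differences have no replicate check, no test across replicates was possible, and the 95% intervals cover counting error only. The knockout label was not borne out by the counts of its gene, and LIN28B, labelled as overexpressed in both lines, differed between them. IGF2BP1 had 1974 RNA counts in the knockout-labelled and 840 in the OE-labelled library (log2 ratio 0.79, 95% interval 0.67 to 0.91), and LIN28B had 303 and 1205 (log2 ratio -2.43, -2.62 to -2.25). IGF2BP1 footprints, 821 in the knockout-labelled and 332 in the OE-labelled library, stood at 1.03 (0.84 to 1.22). No library lacks the LIN28B label, so overexpression itself cannot be checked, and whether IMP1 protein is made was not measured. Every direction is therefore between libraries that carry these labels. For the OE-labelled RNA library the cell line is entered as SW840 in a field of its own and as SW480 in the source name. Of 11 epithelial markers 10 were measured in mRNA, and their summed level was 5670 CPM (counts relative to the library total) in the knockout-labelled and 10462 in the OE-labelled RNA library, most of it from the keratins KRT8 and KRT18. Markers of the list went both ways: KRT8 was lower in the knockout-labelled library, with 1573 against 3373 CPM, while the E-cadherin gene CDH1 was higher, with 90.1 against 44.8 CPM. The leukocyte marker PTPRC was at 0 in all 4 libraries. The haematopoietic list, in which CD68 and GZMB were measured, summed to 90.3 CPM in the knockout-labelled and 44.0 in the OE-labelled RNA library, and its part in the results was not tested. The fibroblast, endothelial and muscle list summed to 233 CPM in the knockout-labelled and 315 in the OE-labelled RNA library, most of it from KDR, with 1312 and 1571 RNA counts but 3 footprint counts in each line. Neural and germ cell markers, of which NES and TUBB3 were measured, summed to 61.8 and 89.5 CPM. In such bulk libraries fewer cells of a type and less RNA per cell cannot be told apart.

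A gene was treated as measured in an assay when its mean count over both libraries was at least 50. Of the 10 genes 9 were measured in mRNA and 8 in footprints. NOTCH3 fell short in both assays, and HES4 fell short in footprints. Ratios have the knockout-labelled library on top and were scaled by TMM factors (trimmed means of the ratios of all genes), whereas CPM uses library totals. A gene was called different at 1.5-fold or more.

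Few Notch genes were called different between the lines, and too few were measured to set their share apart from that of all genes. At 1.5-fold in mRNA, 0 of the 9 measured genes were higher and 1, ADAM10, was lower, while 21.0% of all 9855 measured genes passed 1.5-fold in either direction. In footprints, 0 of 8 were higher and 1, again ADAM10, was lower, against 29.0% of 7323 genes. The median log2 ratio over these genes was -0.02 in mRNA and 0.02 in footprints, beside 0.01 and 0.02 over all measured genes. The counting interval left out 0 for 6 of 9 genes in mRNA, where 55.7% of all genes did so, and for 4 of 8 in footprints, where 57.3% did. In mRNA it lay above 0 for 2 and below 0 for 4, against 28.5% and 27.3% of all genes, and in footprints above 0 for 1 and below 0 for 3, against 29.9% and 27.4%. Over so few genes nothing is read from these shares. When counts were scaled by library totals, the median of all genes in mRNA moved up by 0.12 and no Notch gene passed 1.5-fold in either assay.

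**Figure D1:**
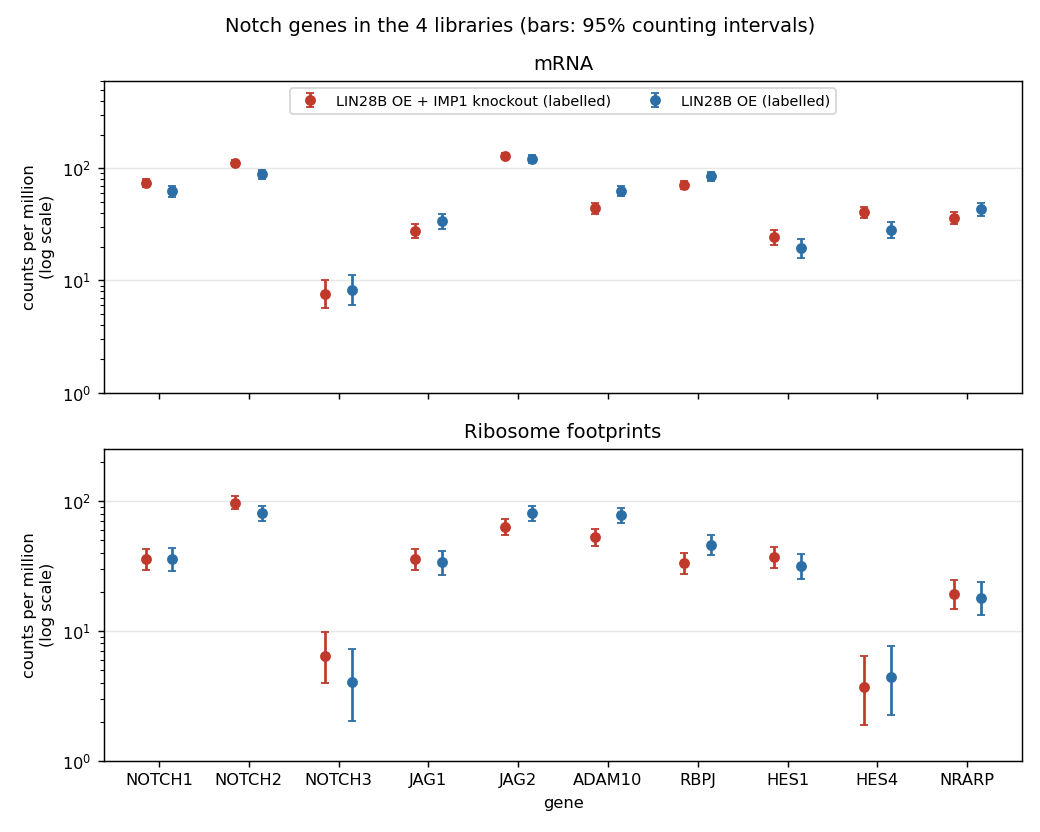
Levels of the 10 Notch genes in CPM (log axis) in the RNA libraries (top) and footprint libraries (bottom), with the knockout-labelled library in red and the OE-labelled library in blue. Points are single libraries and bars are 95% counting intervals. ADAM10 and RBPJ are lower in the knockout-labelled library in both panels, and HES4 has 12 footprint counts in each library.

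The measured receptors, NOTCH1 and NOTCH2, differed little between the lines. NOTCH1 (transcript ENST00000277541, chromosome 9, 136494433 to 136545786, minus strand, GRCh38), a receptor of intestinal progenitors, had 503 RNA counts in the knockout-labelled and 338 in the OE-labelled library, which is 73.8 and 62.3 CPM. Its log2 ratio was 0.13 (-0.07 to 0.33) in mRNA and -0.02 (-0.42 to 0.39) in footprints, from 116 knockout-labelled and 97 OE-labelled footprint counts. Both intervals cross 0, and the sign in footprints turned to 0.002 with scaling by total counts and to 0.006 with upper-quartile scaling.

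NOTCH2 (ENST00000256646, chromosome 1, 119911553 to 120069626, minus strand) was the best counted receptor. It had 760 RNA counts in the knockout-labelled and 482 in the OE-labelled library, and 317 and 219 footprint counts. Its log2 ratio was 0.21 (0.05 to 0.38) in mRNA and 0.26 (0.004 to 0.51) in footprints, and it was the only Notch gene whose interval lay above 0 in both assays. At 1.16-fold in mRNA and 1.19-fold in footprints it stayed below the 1.5-fold call. The value is uncertain because 7.47% of the 28-base stretches of its coding sequence also occur in transcripts of other genes, among them NOTCH2NLA, a partial copy of NOTCH2, and NBPF19. NOTCH2NL itself, counted as a separate gene, had 181 RNA counts in the knockout-labelled and 91 in the OE-labelled library, and 4 and 11 footprint counts.

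NOTCH3 (ENST00000263388, chromosome 19, 15159038 to 15200981, minus strand) was sparse. It had 52 RNA counts in the knockout-labelled and 45 in the OE-labelled library, with 21 and 11 footprint counts. The log2 ratio was -0.24 (-0.84 to 0.37) in mRNA and 0.63 (-0.46 to 1.86) in footprints, so a difference was not detectable at this depth. NOTCH4, the remaining receptor, had 14 knockout-labelled and 7 OE-labelled RNA counts.

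The interval of JAG1 lay below 0 in mRNA alone, and that of JAG2 in footprints alone. JAG1 (ENST00000254958, chromosome 20, 10637684 to 10673999, minus strand), which encodes Jagged-1 and overlaps an antisense gene in its exons, had 189 RNA counts in the knockout-labelled and 183 in the OE-labelled library, or 27.7 and 33.7 CPM. Scaled, its mRNA stood at a log2 ratio of -0.40 (-0.70 to -0.10), 1.32-fold lower in the knockout-labelled library. With scaling by total counts JAG1 mRNA stood at -0.28 and its interval reached across 0. Its footprints, 117 and 92, stood at 0.07 (-0.34 to 0.48).

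JAG2 (ENST00000331782, chromosome 14, 105140981 to 105168824, minus strand), which encodes Jagged-2, had 879 RNA counts in the knockout-labelled and 655 in the OE-labelled library, or 129 and 121 CPM. Its mRNA log2 ratio was -0.02 (-0.17 to 0.13) and became 0.10 when scaled by total counts. Its footprints numbered 205 in the knockout-labelled and 220 in the OE-labelled library, a log2 ratio of -0.38 (-0.66 to -0.10). Of its 28-base coding stretches, 12% also occur in the transcript AL512356.1, which overlaps its exons on the same strand. The Delta-like ligands were below the count minimum: DLL3 had 36 knockout-labelled and 59 OE-labelled RNA counts, DLL1 had 16 and 28, and DLL4 had 7 and 16.

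ADAM10, the protease that makes the activating cut outside the membrane, had the lowest ratio of the measured Notch genes in both assays. The gene (ENST00000260408, chromosome 15, 58588807 to 58749978, minus strand, with exons that overlap an antisense gene) had 301 RNA counts in the knockout-labelled and 341 in the OE-labelled library, which is 44.2 and 62.8 CPM. Footprint counts were 171 in the knockout-labelled and 212 in the OE-labelled library. The mRNA log2 ratio was -0.62 (-0.85 to -0.40), or 1.54-fold lower, and the footprint log2 ratio was -0.59 (-0.89 to -0.29), or 1.5-fold lower. Of all measured genes, 9.40% had a lower mRNA ratio and 14.0% a lower footprint ratio. Both calls rest on the scaling: with total counts ADAM10 was 1.42-fold lower in mRNA and 1.48-fold lower in footprints.

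RBPJ, the factor that carries the Notch intracellular domain on DNA and represses the same genes without it, was also lower in both assays, short of 1.5-fold. The gene (ENST00000355476, chromosome 4, 26320807 to 26435128, plus strand) had 485 RNA counts in the knockout-labelled and 462 in the OE-labelled library, and 108 and 125 footprint counts. Its log2 ratio was -0.37 (-0.56 to -0.19) in mRNA and -0.49 (-0.87 to -0.10) in footprints, or 1.30-fold and 1.40-fold lower. Of its 28-base coding stretches, 19.4% occur in other genes, all of the leading matches being RBPJ pseudogenes, so its counts are uncertain where the authors' counting could split or drop such reads. ADAM10 and RBPJ were the only genes of the 10 whose interval lay below 0 in both assays.

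**Figure D2:**
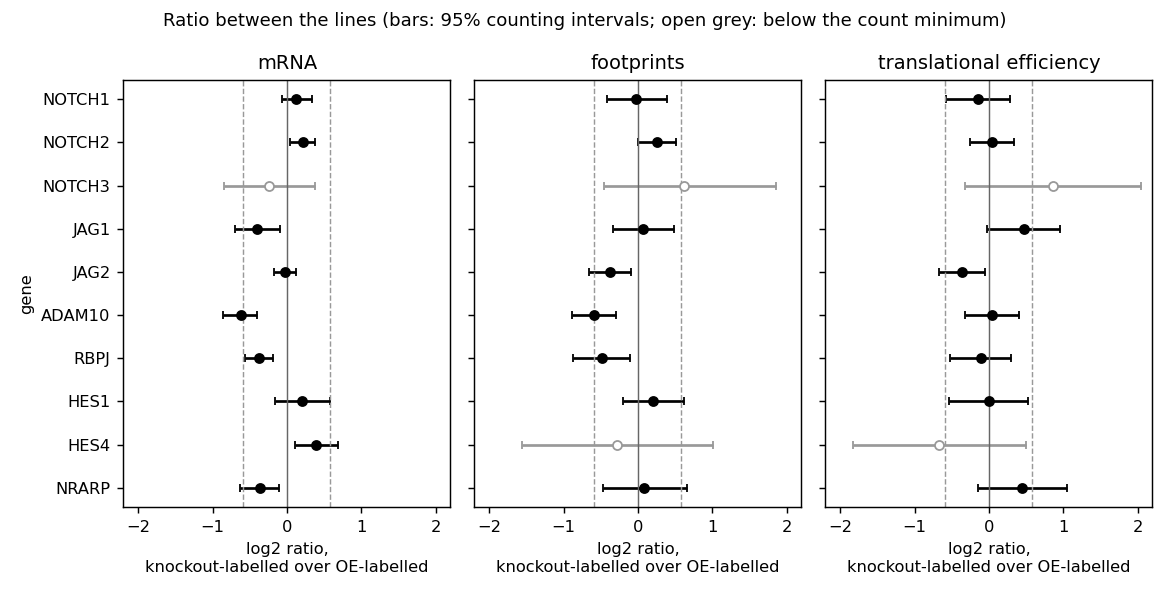
Log2 ratio (knockout-labelled over OE-labelled) for each Notch gene in mRNA (left), footprints (middle) and translational efficiency (right). Points are ratios of single libraries, bars are 95% counting intervals, dashed lines mark 1.5-fold, and open grey points lie below the count minimum. ADAM10 reaches the lower dashed line in mRNA and footprints and stands near 0 in translational efficiency.

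The ratios of the target genes did not share a sign in mRNA. HES1 (ENST00000232424, chromosome 3, 194136145 to 194138732, plus strand), a transcriptional repressor, had 165 RNA counts in the knockout-labelled and 105 in the OE-labelled library, and 120 and 86 footprint counts. Its log2 ratio was 0.20 (-0.15 to 0.57) in mRNA and 0.20 (-0.21 to 0.62) in footprints, both with intervals across 0. HES4 (ENST00000304952, chromosome 1, 998964 to 1000111, minus strand), a related repressor, had 275 RNA counts in the knockout-labelled and 154 in the OE-labelled library. Its mRNA log2 ratio of 0.39 (0.10 to 0.69), or 1.31-fold, was the highest among the 9 measured genes, and 80.4% of all genes stood below it. HES4 footprints numbered 12 in each library.

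NRARP (ENST00000356628, chromosome 9, 137300482 to 137302251, minus strand), which encodes a small ankyrin-repeat protein that dampens Notch signalling as feedback, went the other way in mRNA. It had 247 RNA counts in the knockout-labelled and 234 in the OE-labelled library, a log2 ratio of -0.37 (-0.63 to -0.10). Its footprints, 63 and 49, stood at 0.08 (-0.48 to 0.66). The intervals of HES4 and NRARP in mRNA lie on opposite sides of 0 with TMM scaling. With scaling by total counts NRARP stood at -0.25 and its interval reached across 0. The ratios themselves, intervals aside, kept their signs under each of the 5 scalings tried.

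The proximal promoters of the target genes HES1, HES4 and NRARP are shown as a description, and no relation of their letters to the ratios was tested. Each sequence is the 250 bases before the RefSeq transcription start (GRCh38.p14), 5′ to 3′ on the gene's own strand. Capitals mark TGGGAA on either strand, extended to GTGGGAA where the base before it fits. GTGGGAA is the core that RBPJ is known to bind, and TGGGAA lies within it, so the matches overlap.
HES1, chr3:194135898-194136147, plus strand: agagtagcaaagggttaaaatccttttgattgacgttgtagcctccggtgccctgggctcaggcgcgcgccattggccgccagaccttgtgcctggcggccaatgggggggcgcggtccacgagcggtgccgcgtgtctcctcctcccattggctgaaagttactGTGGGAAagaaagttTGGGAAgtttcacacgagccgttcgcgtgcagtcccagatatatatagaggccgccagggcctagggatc
HES4, chr1:1000098-1000347, minus strand: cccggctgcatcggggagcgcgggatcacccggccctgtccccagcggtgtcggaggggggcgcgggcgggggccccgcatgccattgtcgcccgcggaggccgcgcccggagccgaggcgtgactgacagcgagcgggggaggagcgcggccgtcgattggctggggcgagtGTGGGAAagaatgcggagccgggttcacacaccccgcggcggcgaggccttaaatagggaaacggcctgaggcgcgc
NRARP, chr9:137302272-137302521, minus strand: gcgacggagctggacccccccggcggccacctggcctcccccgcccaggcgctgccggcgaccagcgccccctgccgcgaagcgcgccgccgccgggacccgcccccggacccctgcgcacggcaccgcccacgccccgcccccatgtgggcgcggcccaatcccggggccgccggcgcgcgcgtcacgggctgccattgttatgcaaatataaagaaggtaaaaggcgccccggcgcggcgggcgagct

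GTGGGAA begins 85 bases before the start of HES1 and 77 bases before that of HES4, and HES1 has a further TGGGAA that begins 70 bases before its start. No match was found in the NRARP window, which says only that these letters are not in it. GTGGGAA is in 5.43% of 35116 RefSeq promoter windows of the same length and TGGGAA in 20.9%, both strands searched. Among the other Notch genes, 1 of the 5 RBPJ windows held GTGGGAA, with 2 matches, and the windows of NOTCH1, NOTCH2, NOTCH3, JAG1, JAG2 and ADAM10 held neither. CACNAG, the N box that HES1 is known to bind in its own promoter, occurred 3 times in the HES1 window and not in those of HES4 or NRARP, and is in 32.0% of all windows. A match is a description of the letters and not a measured site.

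Translational efficiency, taken as the ratio in footprints divided by that in mRNA, was called at 1.5-fold for 0 of the 8 measured Notch genes, against 26.3% of 7260 genes. Its interval left out 0 for 1 of 8, JAG2, where 45.7% of all genes did so (22.8% above 0 and 22.9% below). JAG2 stood at a log2 ratio of -0.36 (-0.67 to -0.05), 1.28-fold lower in the knockout-labelled line. JAG1 at 0.47 (-0.02 to 0.96) and NRARP at 0.45 (-0.14 to 1.04) stood highest, with intervals that reach across 0. ADAM10 (0.04), NOTCH2 (0.04) and HES1 (-0.003) were nearest to 0, and their sign changed with the scaling. RBPJ stood at -0.11 (-0.53 to 0.30) and NOTCH1 at -0.15 (-0.58 to 0.29). Because the mRNA ratio is the divisor, counting error in it moves this ratio the opposite way.

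**Figure D3:**
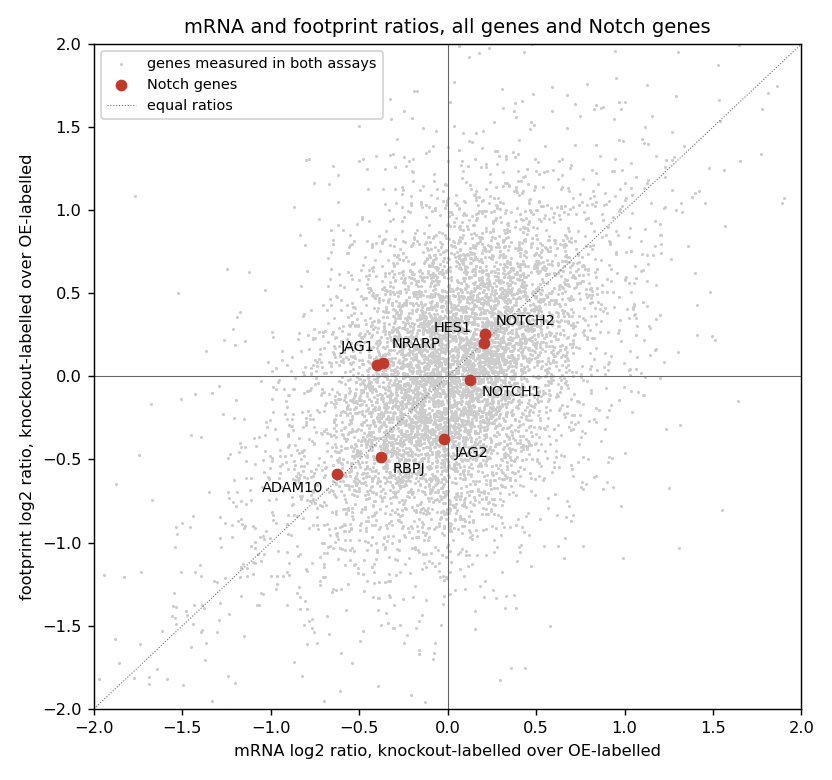
Footprint log2 ratio (vertical axis) against mRNA log2 ratio (horizontal axis), knockout-labelled over OE-labelled, for 7260 genes measured in both assays (grey) and the 8 Notch genes among them (red). The axes run from -2 to 2 and leave out 57 genes. The Notch genes lie inside the main cloud, and ADAM10 and RBPJ have the lowest footprint ratios of the 8, both left of 0 in mRNA.

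Other genes had nearly the same ratios as HES1, NOTCH1 and JAG1, found by distance in the plane of the mRNA and footprint ratios, which rest on 2 lines and 4 libraries. Of 2906 genes with a mean count of at least 200 in both assays, the nearest to HES1 were AHCTF1, FAF2 and ALYREF, at distances of 0.012 to 0.015 on the log2 scale. Near to NOTCH1 were PDZD11 and FOCAD (0.014 and 0.016), and nearest to JAG1 were NARS2, HNRNPUL1 and SYF2 (0.005 to 0.016). These distances are smaller than the counting error of each ratio.

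Within each line, the Notch genes lay on both sides of the median gene in footprints over mRNA. The value was the log2 of footprint over RNA CPM, set to 0 at the median of the 7260 genes measured in both assays. The median of the 8 measured Notch genes was -0.74 in the knockout-labelled and -0.63 in the OE-labelled line, with 5 of 8 and 6 of 8 below the median gene. By definition 3630 of the 7260 genes lie below it, and 8 genes are too few to set their share apart. The values also depend on the genes that set the median and on the counted part of the transcript, as given below. NOTCH1 stood at -1.24 (-1.53 to -0.94) in the knockout-labelled and -1.07 (-1.39 to -0.74) in the OE-labelled line, with 23.1 and 28.7 footprint counts per 100 RNA counts. RBPJ stood at -1.29 and -1.15, JAG2 at -1.22 and -0.84, and NRARP at -1.09 and -1.52. NOTCH2 stood nearer to the median gene, at -0.38 and -0.41.

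Against the median of the 7260 genes, HES1 was the only Notch gene whose interval lay above 0 in both lines. It stood at 0.42 (0.08 to 0.76) in the knockout-labelled line, at percentile 67.9 of measured genes, and at 0.44 (0.03 to 0.85) in the OE-labelled line, at percentile 70.1. ADAM10 lay at that median, at 0.06 (-0.21 to 0.33) and 0.04 (-0.20 to 0.29), and JAG1 at 0.19 (-0.15 to 0.52) and -0.26 (-0.62 to 0.10). The placing depends on the genes that set the zero. Against the median of all 9855 genes measured in mRNA, HES1 stood at 0.76 in both lines. On that scale ADAM10 stood at 0.40 in the knockout-labelled and 0.36 in the OE-labelled line, at percentiles 63.0 and 62.3. NOTCH2 then stood at -0.04 and -0.09. Across the 7260 genes, which share the libraries and are not independent, the values of the lines correlated with r = 0.84 (Pearson) and rho = 0.82 (Spearman).

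**Figure D4:**
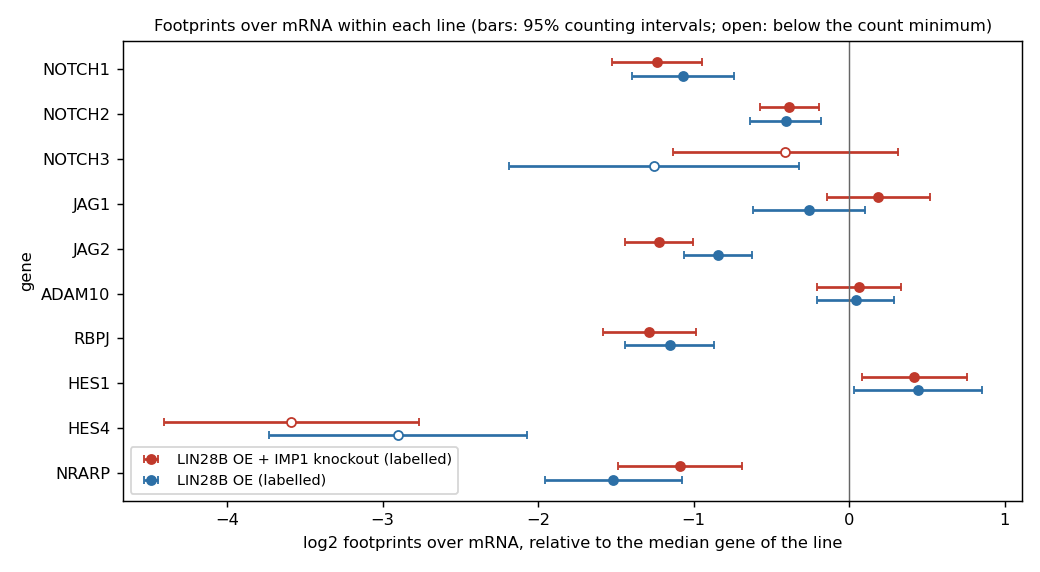
Log2 footprints over mRNA of each Notch gene (horizontal axis), relative to the median gene of the same line at 0, with the knockout-labelled line in red above the OE-labelled line in blue. Bars are 95% counting intervals, and open points (NOTCH3 and HES4) lie below the count minimum. HES4 lies far to the left in both lines, and HES1 lies to the right of 0 in both.

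HES4 had few footprints for its mRNA in both lines. Its 12 footprint counts in each line were 4.36 per 100 RNA counts in the knockout-labelled and 7.79 per 100 in the OE-labelled line, against 72.7 and 81.9 per 100 for HES1. Since HES4 misses the footprint minimum, it was placed among the 9855 genes measured in mRNA alone, where it stood at percentile 2.87 in the knockout-labelled and 4.84 in the OE-labelled line. Its coding sequence is 74.2% G and C, above that of 99.7% of genes measured in mRNA. The tenth of those genes richest in G and C had a median footprint over mRNA of -0.41 in the knockout-labelled and -0.40 in the OE-labelled line relative to the median gene, their percentile 10 stood at -2.64 and -2.57, and HES4 stood at -3.25 and -2.58 on that scale. The part that base composition has in the HES4 value was not tested. NOTCH1, NOTCH3, JAG2 and NRARP also have coding sequences of 65.8% to 66.5% G and C, while HES1 has 62.8%, NOTCH2 and JAG1 53.7% and 54.0%, RBPJ 43.5% and ADAM10 41.6%.

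The start codons of the target genes and of RBPJ are shown because they include the Notch genes with the highest (HES1) and lowest (HES4) footprints over mRNA on the counts as deposited. With RNA scaled to the coding share, ADAM10 stood above HES1. Each line gives 9 bases before the start codon, the start codon in capitals and the next 3 bases, from the listed transcript in GENCODE release 29.
HES1: aaaaggaaaATGcca
HES4: gggcgcaccATGgcc
NRARP: ggcggcagcATGagc
RBPJ: tgaagtaccATGgcg

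All 4 have A at the third base before the start codon, and HES4 and RBPJ have G right after it. Of the other Notch genes, ADAM10 has both bases too, and NOTCH2 has the A alone. NOTCH3, JAG1 and JAG2 have G at the third base before the start codon, and NOTCH3 also has G right after it. The listed NOTCH1 transcript has no 5′ leader. The 5′ leader of HES4 has 138 bases and no upstream ATG, and that of HES1 has 236 bases and none. NRARP has 2 upstream ATGs in 323 bases, RBPJ 6 in 408, ADAM10 2 in 444, JAG1 2 in 469, JAG2 3 in 404 and NOTCH2 1 in 220. No relation to footprints was tested over so few genes.

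No source used here says whether RNA reads were counted over the whole transcript or its coding part, which bears on these values. The coding part is 19.5% of the NRARP transcript, 19.7% for ADAM10, 24.4% for RBPJ and 82.4% for NOTCH1. With RNA counts scaled down to the coding share, a setting added after the data were seen, ADAM10 stood at 1.42 in the knockout-labelled and 1.41 in the OE-labelled line, at percentiles 92.1 and 92.6. NRARP then stood at 0.28 and -0.13, RBPJ at -0.24 and -0.09, and NOTCH1 at -1.95 and -1.76. HES1 stayed above the median gene, at 0.33 and 0.37, and the receptors and JAG2 stayed below it. Across 7252 genes, footprints over mRNA were higher at a higher log2 coding share, with a slope of 0.35 in the knockout-labelled and 0.39 in the OE-labelled line and a Pearson r of 0.29 and 0.33, as a description only.

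Per kilobase of coding sequence, NRARP was the most abundant of the 10 mRNAs and NOTCH3 the least. In CPM per kilobase of coding sequence, NRARP had 105 in the knockout-labelled and 125 in the OE-labelled RNA library, and NOTCH3 had 1.1 and 1.19. In the knockout-labelled RNA library the order ran from NRARP through HES4 (60.6), RBPJ (48.7), JAG2 (34.7), HES1 (28.7), ADAM10 (19.7), NOTCH2 (15.0), NOTCH1 (9.63) and JAG1 (7.59) to NOTCH3, and of neighbours only JAG2 and HES1 had overlapping intervals. In the OE-labelled RNA library RBPJ (58.2) came before HES4 (42.6), and JAG2 (32.5) overlapped ADAM10 (28), ADAM10 overlapped HES1 (22.9), and JAG1 (9.22) overlapped NOTCH1 (8.12).

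In footprints per kilobase of coding sequence, NRARP and HES1 stood above the other genes in the knockout-labelled library, while in the OE-labelled library the interval of HES1 overlapped that of ADAM10. NRARP had 56.0 in the knockout-labelled and 52.0 in the OE-labelled library and HES1 had 43.7 and 37.3, with overlapping intervals. ADAM10 had 23.3 and 34.5 and RBPJ 22.7 and 31.3, also with overlapping intervals. Among the receptors NOTCH2 led, with 13.1 and 10.8, before NOTCH1 with 4.64 and 4.63. The mRNA order depends on the length used: per kilobase of the whole transcript, HES4 led with 44.9 in the knockout-labelled and 31.6 in the OE-labelled library, and NRARP had 20.5 and 24.4.

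The wider pathway was read from a list of 72 genes by role, of which 70 were in the files, the 10 genes above included, 48 were measured in mRNA and 36 in footprints. At the 1.5-fold call in mRNA, 6 of 48 were higher and 6 were lower, 12.5% each way, against 10.5% each way of all genes. The median was 0.09, beside 0.01 over all genes. In footprints 9 of 36 were higher and 5 lower, 25% and 13.9%, against 15.0% and 14.0% of all genes, with a median of 0.01 beside 0.02. In translational efficiency 2 of 36 were higher and 6 lower, 5.56% and 16.7%, against 13.4% and 12.9%, with a median of -0.07 beside -0.005 over all genes. The list was chosen with earlier results of these data known, and nothing is called particular to it.

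**Figure D5:**
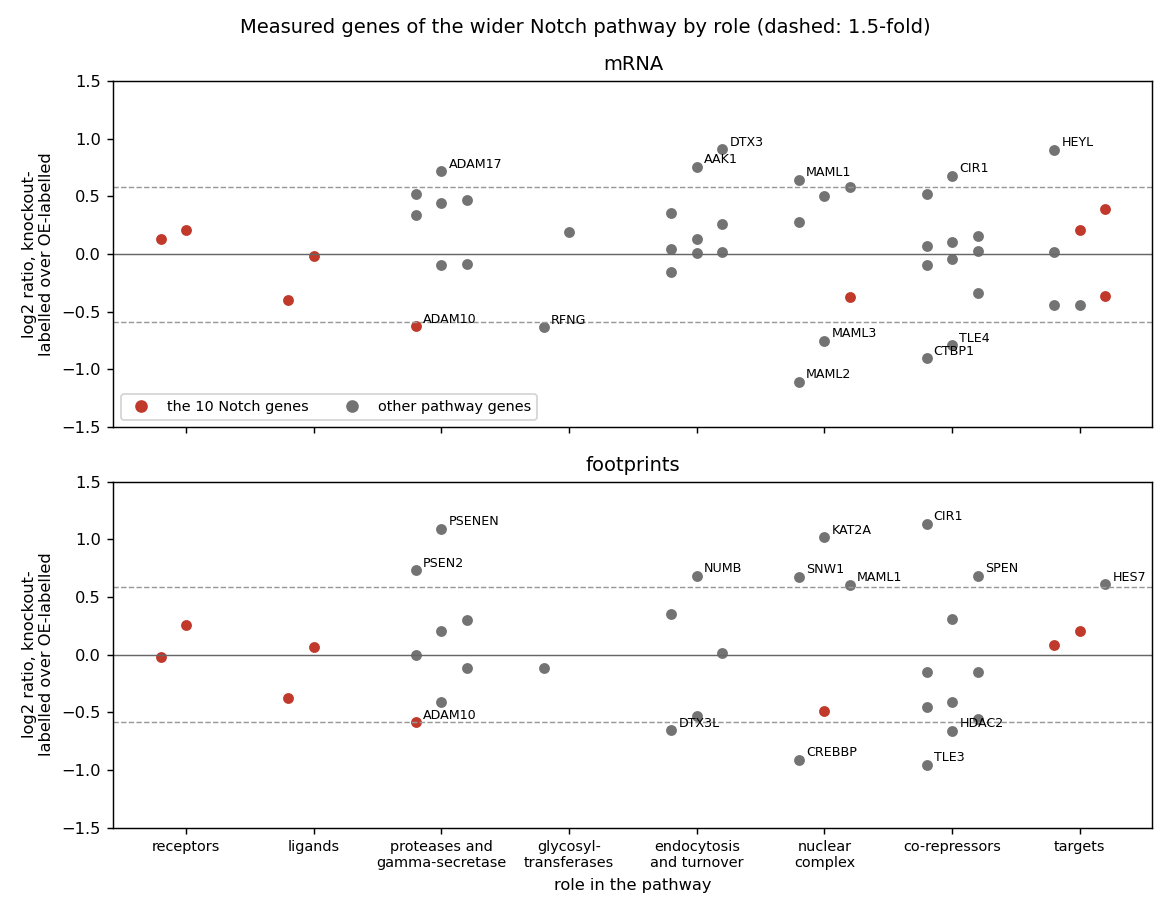
Log2 ratio (vertical axis), knockout-labelled over OE-labelled, of measured genes of the wider Notch pathway by role, in mRNA (top) and footprints (bottom), with the 10 Notch genes in red and other pathway genes in grey. Dashed lines mark 1.5-fold, and genes at or past them are named. ADAM17 stands above the upper line in mRNA and ADAM10 below the lower line.

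Of 8 measured genes of receptor processing, 1 was called higher in mRNA, 1, ADAM10, lower, and 6 were not called. That is 12.5% each way, near the 10.5% each way of all 9855 measured genes. ADAM17, a protease that can also cut Notch receptors, had 919 RNA counts in the knockout-labelled and 410 in the OE-labelled library, 1.65-fold higher (log2 ratio 0.72, 0.55 to 0.89), opposite in direction to ADAM10. Its footprints, 312 and 209, stood at 0.30 (0.04 to 0.56). Of the gamma-secretase genes, PSEN2 (0.52) and NCSTN (0.44), which encode a presenilin and nicastrin, and APH1A (0.34), which encodes a scaffold subunit, lay between 0 and the 1.5-fold call in mRNA, and PSENEN (-0.10), which encodes the presenilin enhancer, lay near 0. In footprints PSENEN was 2.13-fold higher, with 109 knockout-labelled and 42 OE-labelled counts (log2 ratio 1.09, 0.57 to 1.65), and PSEN2 was 1.66-fold higher. FURIN, the convertase that matures Notch receptors, stood at -0.09 in mRNA and -0.001 in footprints.

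In the nuclear complex, Mastermind genes went in different directions. MAML1 was 1.56-fold higher in mRNA and 1.52-fold higher in footprints, with 468 knockout-labelled and 220 OE-labelled RNA counts. MAML2 mRNA was 2.16-fold lower, with 56 and 89 counts, and MAML3 mRNA 1.68-fold lower, with 63 and 78. KAT2A, which encodes an acetyltransferase, was 2.02-fold higher in footprints and SNW1, a co-activator and splicing factor gene, 1.60-fold higher, from 1843 knockout-labelled and 952 OE-labelled footprint counts. CREBBP, the acetyltransferase gene, was 1.88-fold lower in footprints and 2.27-fold lower in translational efficiency, with a log2 ratio of 0.27 in mRNA.

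Co-repressors that sit with RBPJ in the absence of Notch signals were also divided. CTBP1 mRNA was 1.87-fold lower, from 559 knockout-labelled and 768 OE-labelled counts, and TLE4 mRNA was 1.73-fold lower. TLE3 and HDAC2 footprints were 1.94-fold and 1.58-fold lower. CIR1 was 1.60-fold higher in mRNA and 2.19-fold higher in footprints, and SPEN footprints were 1.61-fold higher.

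Among genes of glycosylation, endocytosis and turnover, RFNG mRNA, for a Fringe enzyme that modifies Notch receptors, was 1.55-fold lower in the knockout-labelled library. POFUT1, the O-fucosyltransferase gene, stood at 0.19. NUMB, which encodes an inhibitor of Notch receptors, was 1.61-fold higher in footprints, with 269 knockout-labelled and 138 OE-labelled counts, and stood at 0.13 in mRNA. DTX3 and AAK1 mRNA were 1.88-fold and 1.69-fold higher, and DTX3L footprints were 1.58-fold lower. MIB1, the ubiquitin ligase gene that drives ligand endocytosis, stood at 0.01 in mRNA and -0.53 in footprints. Of the other HES and HEY targets, HEYL mRNA was 1.87-fold higher, from 146 knockout-labelled and 57 OE-labelled counts, and HES6 stood at 0.02 in mRNA. HES7 footprints were 1.52-fold higher. HES7 had 67 RNA counts in each library, a scaled mRNA log2 ratio of -0.44 (-0.96 to 0.07).

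In translational efficiency the 2 genes called higher were PSENEN (log2 ratio 1.19) and HES7 (1.05). The 6 called lower included CREBBP (-1.18), DTX3L (-1.01), HDAC2 (-0.77), AAK1 (-0.74) and TLE3 (-0.62). For AAK1, DTX3L and HDAC2 the mRNA log2 ratio lay above 0 and, AAK1 apart (0.02), that of footprints below it. When total counts set the scale, mRNA log2 ratios move up by 0.12. Values less than 0.12 below 0 can then change sign. Values as near below the upper 1.5-fold line can become calls, and calls as near past the lower line can be lost.

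Secretory lineage markers, DCLK1 apart, had few or no counts in both lines. ATOH1 had 1 RNA count in the knockout-labelled and 0 in the OE-labelled library and no footprint. The count of 0 in the OE-labelled RNA library allows a level of up to 0.553 CPM (3 counts). Of 14 secretory markers in the files 6 were at 0 in all 4 libraries, and only DCLK1, a tuft cell marker, was measured, with 946 and 779 RNA counts. The list summed to 144 CPM in the knockout-labelled and 151 in the OE-labelled RNA library, most of it from DCLK1 (139 and 143 CPM). Of 10 absorptive markers 5 were at 0 in all 4 libraries, and VIL1, which encodes villin, had 147 knockout-labelled and 194 OE-labelled RNA counts.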

How the data were processed

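Each library pooled 3 plates, per the labels' protocols. Size selection kept 18 to 34 nt for footprints and 18 to 50 nt for RNA, linkers held random bases (4 and 5 nt), ribosomal RNA was depleted, and 15 PCR cycles followed. The authors deposited raw counts, 1 whole number and 1 transcript for each gene, per the file headers. Build GRCh38 and the tools HISAT2 2.1.0, Bowtie 1.1.2 and cutadapt 1.10 are named, per the submitters' processing notes, with no role or order. No source used here names the counter, the counted part of the transcript, the use of strand or any collapsing of PCR copies. Counted copies would make the intervals too narrow.

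Samples were grouped by genotype label and assay. Counts were scaled within each assay by TMM (edgeR 4.0.16, R 4.3.3) with 0.5 added to each count. Intervals between lines are exact conditional binomial (Clopper-Pearson), and those of translational efficiency and of footprints over mRNA are Wald intervals from the counts. A quasi-likelihood test or an interaction model needs replicates and was not fitted. Steps were tested on simulated counts. Lengths and coordinates come from GENCODE release 29 (GRCh38), which held 19176 of 19192 transcripts. ADAM10 and JAG1 exons overlap antisense genes. Scripts ran in Python 3.11.15 with matplotlib 3.10.9, pandas 2.3.3, scipy 1.17.1 and numpy 2.4.6.

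The genes, lists and tests were chosen with earlier results of these data known. Named genes are the 10 Notch genes; the wider list's measured genes at 1.5-fold or more in any ratio, with the best counted gene of each role; marker genes past the count minimum, in part as list sums; IGF2BP1 and LIN28B; and the 3 genes nearest to HES1, NOTCH1 and JAG1. Some genes named by this rule are not reported here, and other wider list and marker genes were named after their values were seen. List genes not found in the files were not analysed here. Other settings tried were scaling by upper quartile, by DESeq2 1.42.0 size factors and by totals (also leaving out mitochondrially encoded genes), minimums of 10, 200 or none, calls at 2-fold and 3-fold, and 5 in place of 0.5 added.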

Additional observations from a re-analysis of the deposited data

How the results depend on the processing

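No paired analysis was possible because each group holds 1 library. For Notch genes at 1.5-fold, the 1 call in mRNA became 0 with total counts, with total counts without mitochondrially encoded genes and at 2-fold and 3-fold. The 1 call in footprints became 0 in those settings, with upper-quartile scaling, with 5 added to each count and with a minimum of 200, and 2 with a minimum of 10 or none, as NOTCH3 entered. The 0 calls in translational efficiency became 2 with a minimum of 10 or none, as NOTCH3 and HES4 entered. Over all genes, calls in mRNA, footprints and translational efficiency numbered 2074, 2123 and 1911; with a minimum of 10 they were 3392, 4115 and 3981, with 200 they were 792, 569 and 390, with none 6162, 6443 and 6082, at 2-fold 639, 666 and 526, and at 3-fold 127, 135 and 77. Fewer or more genes were tested under other minimums. The wider pathway's mRNA median was 0.21 with total counts and 0.20 without mitochondrially encoded genes, and with a minimum of 200 its footprint and efficiency medians were -0.15 and -0.36. The median footprints over mRNA of the Notch genes, -0.74 in the knockout-labelled and -0.63 in the OE-labelled line, were -0.55 and -0.36 when not centred, -0.56 and -0.38 without mitochondrially encoded genes, -1.14 and -0.94 with a minimum of 200, -0.52 and -0.75 with a minimum of 10, and -0.17 and -0.33 with RNA scaled to the coding share, where NRARP turned to 0.28 in the knockout-labelled line. Where no reason is given, the cause was not tested. With DESeq2 size factors the counts of calls and the wider pathway's medians stayed within 1.5 times and within 0.01 on the log2 scale. Footprint counts of 11 to 317 limit each Notch ratio.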

Other observations

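Some genes of the wider pathway below the count minimum in an assay had wide differences, and those given were chosen after their values were seen. NEURL1, a ubiquitin ligase gene that acts on Notch ligands, had 64 RNA counts in the knockout-labelled and 1 in the OE-labelled library (log2 ratio 4.98, 95% counting interval 3.03 to 10.88). Its footprints, 25 and 0, were at least 6.88-fold higher against a floor of 3 counts per library. POGLUT1, a glucosyltransferase gene, had 62 RNA counts in the knockout-labelled and 17 in the OE-labelled library (log2 ratio 1.39, 0.63 to 2.29) and 35 and 13 footprint counts (1.12, 0.20 to 2.2). MAML2, measured in mRNA and given above, had 5 footprint counts in the knockout-labelled and 59 in the OE-labelled library (log2 ratio -3.71, -5.51 to -2.53).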
